A study of Mus musculus with 4 samples.

Results

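The alpha class of glutathione transferases was followed through 4 arrays of NIH-3T3 cells, an established line of mouse embryonic fibroblasts. The family was taken as 6 mouse genes, Gsta1, Gsta2, Gsta3, Gsta4, Gm10639 and Gm3776, with near-identical copies included, out of 20891 gene symbols measured. Every gene probe whose transcript accession maps to one of these symbols was used on all 4 arrays. This gave 7 probes for 5 of the 6 genes and none for Gsta1. The genes were chosen because of their large values in these same comparisons, so their differences from the untreated array are a description and carry no test.

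The control culture was labelled as having no treatment and is called untreated here. Each of the other 3 cultures received a single compound, AR7, CA39 or CA77, at 20 µM and was taken after 24 h. The 3 compounds are related small molecules made to activate chaperone-mediated autophagy, the route by which single cytosolic proteins enter lysosomes, through the retinoic acid receptor alpha. All cultures were of the same line, and the compounds were dissolved in DMSO, whereas the label of the control names no vehicle. Vehicle and compound can therefore not be told apart in what all treated cultures share. There was 1 array per group (n = 1), so no difference below has a replicate check and no p-value is given.

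The array values are normalised fluorescence intensities on the log2 scale. The 4 arrays lay on 1 slide, where untreated took row 1 and all treated arrays took row 2. Position on the slide and treatment therefore cannot be told apart. The CA77 array was read in scan 2 and the other 3 arrays in scan 1. The share of probes detected, meaning well above background for most of their spots, was 69.7% on the untreated array, 61.6% on CA77, 52.9% on AR7 and 52.2% on CA39. Of 12 fibroblast markers 11 or 12 were detected on each array, while Alb, Ttr, Apoa1 and Hnf4a of liver and Cdh1, Krt19 and Fabp1 of epithelium were detected on none. In all, 5 of 9 liver markers, 3 or 4 of 8 epithelial, 2 to 4 of 4 macrophage and 2 or 3 of 4 fat cell markers were detected per array. In bulk RNA, more cells that express a gene and more RNA per cell cannot be told apart.

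Glutathione transferases join the thiol of glutathione to reactive, mostly fat-soluble compounds, so that these can be exported and broken down. The alpha class is abundant in liver, kidney and gut, and it is known for acting on products of lipid peroxidation. Gsta4 conjugates 4-hydroxynonenal, an alkenal released from oxidised lipids. Gsta3 acts on the epoxide of aflatoxin, and Gsta1 and Gsta2 are broad conjugating enzymes with peroxidase activity whose transcripts are inducible in liver by antioxidants and xenobiotics. Gm3776 and Gm10639 are gene models annotated as closely related copies of Gsta1. Several members have antioxidant response elements, the binding sites of the stress factor NRF2 (gene Nfe2l2), or are responsive to the aryl hydrocarbon receptor.

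How alike the copies are was read from the RefSeq promoter table of mouse assembly GRCm38.p6, which held 5 of the 6 genes (all but Gsta4) with 250 bases before and 50 after an annotated start. Gsta1, Gm3776, Gm10639 and Gsta2 lie on chromosome 9. Gm10639 and Gm3776 were identical at 294 of 298 aligned bases (98.7%), Gsta1 and Gm3776 at 284 of 287 and Gsta1 and Gm10639 at 97.9%. Gsta2 stood further off, with 80.3 to 81.4% identity to the other 3. The 150 bases before the outermost annotated start of each gene are shown to let the copies be compared, with capitals at bases that differ from Gm3776 or have no partner in it. The capitals come from alignments of the whole 300-base windows, so a lower-case base at the end of a stretch can have its partner in a part of the Gm3776 window that is not shown.
Gm3776, chr9:78256979-78257128, + strand: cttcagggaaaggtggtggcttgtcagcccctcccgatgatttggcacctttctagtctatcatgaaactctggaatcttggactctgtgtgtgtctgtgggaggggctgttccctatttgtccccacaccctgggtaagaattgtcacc
Gsta1, chr9:78230519-78230668, + strand: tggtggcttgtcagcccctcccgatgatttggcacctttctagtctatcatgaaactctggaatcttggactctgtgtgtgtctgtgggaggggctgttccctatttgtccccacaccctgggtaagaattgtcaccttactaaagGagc
Gm10639, chr9:78289778-78289927, + strand: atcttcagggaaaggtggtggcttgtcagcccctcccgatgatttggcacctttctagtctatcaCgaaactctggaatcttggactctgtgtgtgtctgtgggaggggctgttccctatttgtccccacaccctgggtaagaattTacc
Gsta2, chr9:78347193-78347342, - strand: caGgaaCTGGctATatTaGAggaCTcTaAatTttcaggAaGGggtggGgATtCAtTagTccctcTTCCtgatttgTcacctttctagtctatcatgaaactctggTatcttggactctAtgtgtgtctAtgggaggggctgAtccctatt
In these stretches Gsta1 had 1 capital, Gm10639 had 2 and Gsta2 had 34. The stretches start at slightly different places because the annotated starts do. The sequences of the array probes were not used here, so which copy a probe read, and whether transcripts of Gsta1 bind to probes of the other copies, was not tested.

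The core of the antioxidant response element, TGACNNNGC, was searched on both strands of these windows. Gsta3, which lies on chromosome 1, held 1 match on its own strand, beginning 121 bases before the start in the table, which is 101 bases before the end of the stretch shown, and Gsta1, Gm3776, Gm10639 and Gsta2 held none. The match is in capitals in the 150 bases shown here because it was the sole match of this motif in the 5 windows. Gsta4 had no window, and bases beyond the windows were not searched.
Gsta3, chr1:21240415-21240564, + strand: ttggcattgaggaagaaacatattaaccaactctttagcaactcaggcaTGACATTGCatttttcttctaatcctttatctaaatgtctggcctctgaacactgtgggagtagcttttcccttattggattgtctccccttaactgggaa
Of 32851 promoters of the same length, 12.4% held this motif. The xenobiotic response element core GCGTG, which the aryl hydrocarbon receptor binds, was found once each in Gsta1, Gm3776 and Gsta2, within 12 bases of the start, and in 32.4% of all promoters. The direct repeat with a spacing of 5 bases that retinoic acid receptors bind was in none of the 5 windows and in 3 promoters in all. The pattern searched is so rare (0.009% of promoters) that its absence from 5 windows cannot tell whether these genes hold a receptor site. No other spacing was searched. A match is a description of the letters and not a site in use.

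Gsta4, the 4-hydroxynonenal conjugating member, was well above background on all 4 arrays and was past 2-fold higher with every compound. Its probe was printed 10 times on each array, which gives it an error within the array. The mean over spots was 9.84 ± 0.10 on the untreated array, 10.99 ± 0.09 on CA39, 14.02 ± 0.09 on CA77 and 14.53 ± 0.13 on AR7 (log2 intensity, SD over 10 spots, and over 9 on CA77, where 1 spot was marked by the scanner software and left out). The spots ran from 9.72 to 9.96 on untreated, 10.81 to 11.15 on CA39, 13.89 to 14.16 on CA77 and 14.32 to 14.77 on AR7, so no 2 arrays overlapped. In net scanner units the mean signal was 891 on untreated, 2123 on CA39, 15336 on CA77 and 25287 on AR7.

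As a log2 difference from untreated, Gsta4 reached 4.69 under AR7 (25.9-fold, SD over spot positions 0.13), 4.18 under CA77 (18.1-fold, SD 0.07) and 1.15 under CA39 (2.22-fold, SD 0.12). The lowest of the 10 spots with CA39 was 0.85 above its untreated partner. These SDs cover the spots of an array only and not the spread between cultures. Marker genes also moved on the CA39 array, where Epcam and Krt8 of the 8 epithelial markers, Serpina1a of the 9 liver markers and 5 of 12 fibroblast markers (Col1a1, Fn1, Pdgfra, Pdgfrb and Fbn1) were past 2-fold higher than in untreated cells, and the fat cell marker Fabp4 was lower. The summed normalised intensity of the epithelial markers was 1732 on CA39 and 622 to 666 on the other arrays, and that of the liver markers 3457 on CA39 and 1174 to 1314 elsewhere. Their part in the Gsta4 value with CA39 was not tested. With AR7 the marker past 2-fold was Col1a1, lower, and with CA77 it was Vil1 of epithelium, higher. The general tolerance of a difference, from 399 probes printed 10 times, was 0.16 (log2), and 0.21 for dim probes.

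The copies Gm10639 and Gm3776 were far higher with AR7 and CA77 than in untreated cells, and near their untreated level with CA39. Gm10639 by its first probe read 7.48 on untreated, 7.73 on CA39, 14.60 on CA77 and 15.35 on AR7 (log2 intensity, 1 spot per array). Gm3776 read 7.56 on untreated, 7.71 on CA39, 14.43 on CA77 and 15.22 on AR7. Both thus showed a low pair, untreated and CA39, and a high pair, CA77 and AR7, with a wide gap between.

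The difference from untreated with AR7 was 7.87 (234-fold) for the first Gm10639 probe, the highest of 39210 probes tested, and 7.65 (201.5-fold) for Gm3776. With CA77 the differences were 7.13 (139.7-fold) and 6.86 (116.3-fold). With CA39, Gm3776 was 0.15 higher, within the tolerance, and Gm10639 was 0.26 higher, just past that of dim probes, while over the alternatives it ran from 0.17 to 0.28.

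The second Gm10639 probe was not well above background on untreated and CA39, read 10.16 on AR7 and 9.23 on CA77, and so gave lower bounds. It was at least 4.33 higher with AR7 (20.2-fold) and at least 3.41 higher with CA77 (10.6-fold), and no difference was given with CA39. With 50 added after the normexp background correction these bounds were 3.47 and 2.60, and with the scanner software's processed signal 5.57 and 4.64. The probes of this gene therefore agreed on which arrays were high, and a bound does not allow the sizes of their differences to be set against each other.

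Gsta2 read 6.58 on untreated, 14.11 on AR7 and 13.45 on CA77, and was not well above background on CA39. It was 7.53 higher with AR7 (184-fold) and 6.87 higher with CA77 (116.7-fold), and with the offset of 50 these were 6.92 and 6.26. AR7 and CA77 stood apart from untreated, as for the other chromosome 9 copies, and with CA39 there was no difference to give because the untreated level lay under the detection floor of the CA39 array.

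Gsta3 is the member on another chromosome, and it moved with the same arrays by a smaller amount. Its first probe read 7.04 on untreated, 6.98 on CA39, 10.03 on CA77 and 10.72 on AR7. The second read 7.06 on untreated, 9.55 on CA77 and 10.10 on AR7, and was not well above background on CA39. The differences from untreated were 3.69 and 3.04 with AR7 (12.9-fold and 8.23-fold) and 2.99 and 2.49 with CA77 (7.94-fold and 5.63-fold). With CA39 the first probe differed by -0.06, within the tolerance, and the second by -0.21 or less, a bound. The first probe passed the tolerance on the low side with the processed signal (-0.29), with 75th percentile scaling of it (-0.50) and in the deposited series table (-0.41). The bound of the second ran from -0.42, with that scaling, to -0.11 with the surrounding block subtracted.

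**Figure D1:**
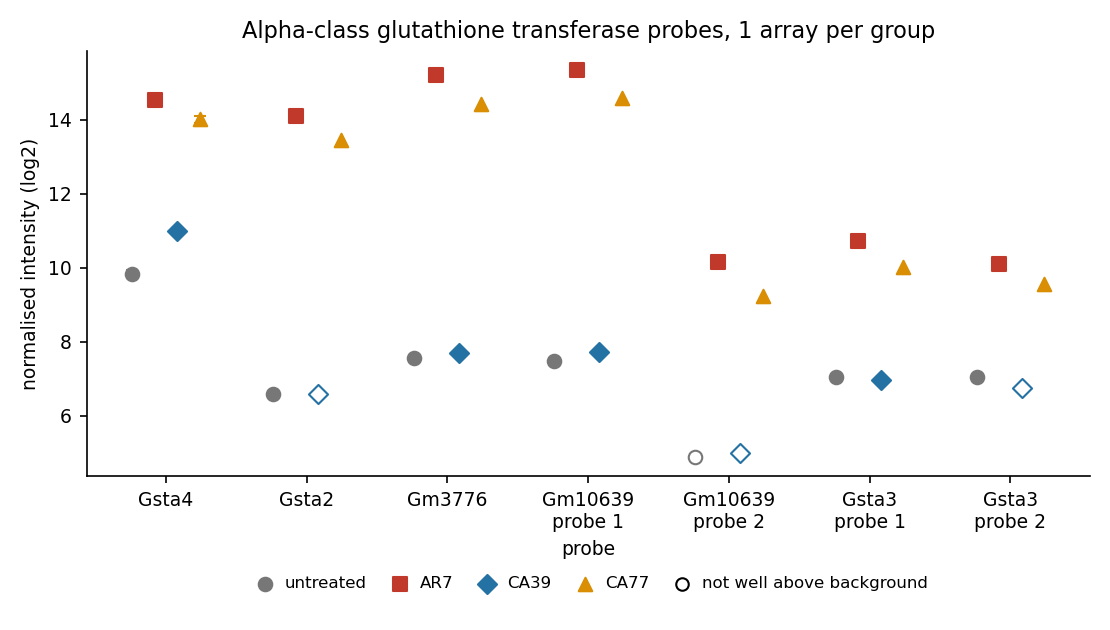
Normalised log2 intensity of the 7 alpha-class probes (horizontal axis) on the untreated, AR7, CA39 and CA77 arrays, 1 array per group. Open symbols were not well above background, and bars on Gsta4 are the SD over its spots (mostly smaller than the symbol). For each probe AR7 and CA77 lie above untreated and CA39, and Gsta4 alone shows CA39 clearly above untreated.

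Counted over the family, 7 of 7 probes were past 2-fold higher with AR7, where 2.0% of 39210 probes were, and 7 of 7 with CA77, where 2.04% of 39693 were. With CA39 it was 1 of 7, Gsta4, where 3.62% of 39294 probes were past 2-fold higher. The median difference of the family was 4.69 with AR7, 4.18 with CA77 and 0.15 with CA39, each beside a median of 0 over all probes. The median over all probes counts a difference not given as 0, whereas that of the family leaves it out. Over probes detected on both arrays the median was -0.01 with AR7, -0.02 with CA77 and -0.03 with CA39. The family median with CA39 is over 5 of the 7 probes, 1 of them a bound. Gsta2 and the second Gm10639 probe had no difference to give. These shares cannot be read against each other, since the members were selected on these very differences. The spots around each alpha-class spot on the slide had median differences between -0.22 and 0.07 with all 3 compounds, so the signals were not shared by their surroundings.

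**Figure D2:**
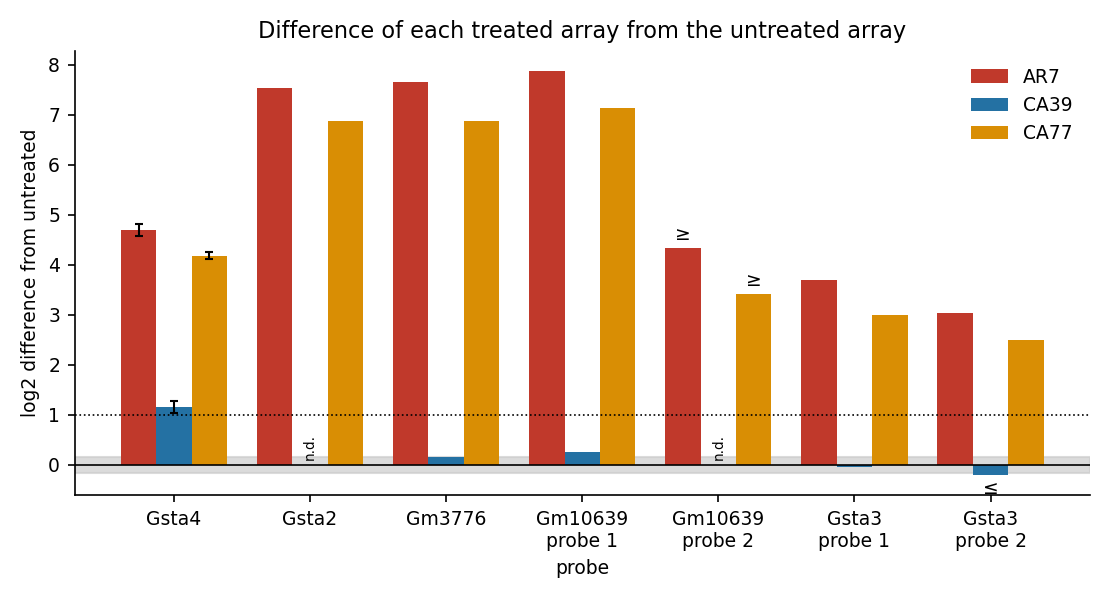
Log2 difference of AR7, CA39 and CA77 from untreated for the 7 probes, 1 array against 1 array. The grey band is the tolerance of 0.16 and the dotted line 2-fold, ≥ and ≤ mark bounds, n.d. marks a difference not given because the higher of the values compared, after the floor, was not well above background, and bars on Gsta4 are the SD over spot positions. AR7 bars exceed CA77 bars at all 7 probes, and Gsta4 is the sole probe with CA39 past 2-fold.

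The 3 compounds were used at the same dose and time, so their arrays were compared directly in 3 pairs. AR7 was above CA77 at all 7 probes, by 0.51 for Gsta4 (0.41 to 0.66 over its spots), 0.55 and 0.70 for Gsta3, 0.66 for Gsta2, 0.79 for Gm3776, and 0.75 and 0.93 for Gm10639 (log2). Each of these 7 differences was past the tolerance, and 0 of 7 were past 2-fold, where 1.67% of 34791 probes were past 2-fold higher with AR7. Whether AR7 and CA77 differ between cultures cannot be said from 1 array each.

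CA39 stood apart from both other compounds. AR7 was past 2-fold above CA39 at 7 of 7 probes, where 2.56% of all probes were, with differences from 3.25 to 7.62. CA77 was past 2-fold above CA39 at 7 of 7 probes, where 2.22% of all probes were, with differences from 2.39 to 6.87. In each of these pairs 3 of the 7 values are lower bounds, those of Gsta2, the second Gm10639 probe and the second Gsta3 probe. For Gsta4 the gap to CA39 was 3.54 for AR7 and 3.03 for CA77, measured on both sides.

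**Figure D3:**
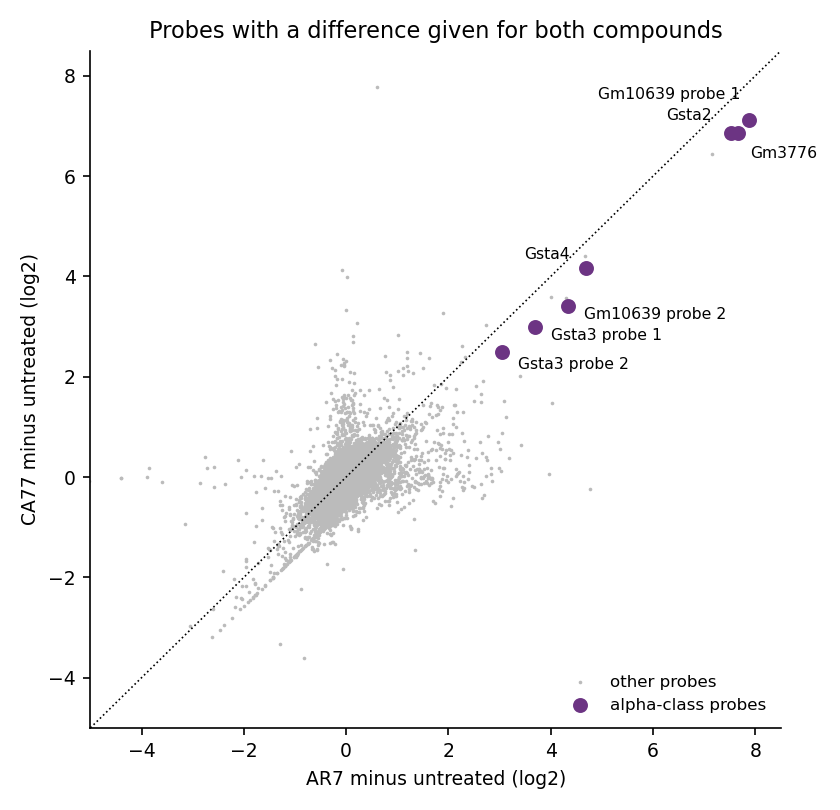
AR7 minus untreated (horizontal, log2) against CA77 minus untreated (vertical, log2), for probes with a difference given for both. Purple points are the 7 alpha-class probes, grey points are 30018 other probes (9 more lie outside the axes), and the dotted line marks equal differences. Both axes share the untreated array. The alpha-class points lie in the upper right and just below the line, with the first Gm10639 probe, Gm3776 and Gsta2 farthest out. The second Gm10639 probe, at 4.33 and 3.41, is a lower bound on both axes.

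The 5 chromosome 9 members lie in 1 stretch in the annotation of GRCm38.p6, in the order Gsta4, Gsta1, Gm3776, Gm10639, Gsta2, and their neighbours were read in that order. Before Gsta4, Fbxo9, which encodes an F-box protein, had differences of 0.09 (AR7), -0.10 (CA39) and 0.14 (CA77). Cilk1, a kinase of the cilium, was 0.30, 0.25 and 0.23 higher, and the noncoding C920006O11Rik was detected on no array. None of the 3 was past 2-fold.

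Dppa5a, a gene known from pluripotent cells that lies directly beyond Gsta2, was past 2-fold higher with AR7 and CA77. It read 8.62 on untreated, 9.33 on CA39, 10.11 on CA77 and 11.26 on AR7 (log2 intensity), which are differences of 0.71, 1.5 and 2.64. Its order of arrays, untreated, CA39, CA77, AR7, is that of Gsta4. Dppa5b and Dppa5c, annotated as pseudogenes and without a probe, lie inside the stretch, on either side of Gm3776. Whether their transcripts bind to the Dppa5a probe was not tested. Omt2a, an oocyte transcript between Gm10639 and Gsta2, was detected with AR7 alone, at least 1.33 above untreated, and over the alternatives this bound ran from 0.84, with the offset of 50, to 2.90 without a floor. Omt2b was detected on no array. Farther out, Ooep, another oocyte gene, was 0.48, 0.19 and 0.36 higher with AR7, CA39 and CA77, and the helicase gene Ddx43 was detected with CA77 alone, at least 0.78 above untreated (0.46 to 2.13 over the alternatives, so on either side of 2-fold).

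**Figure D4:**
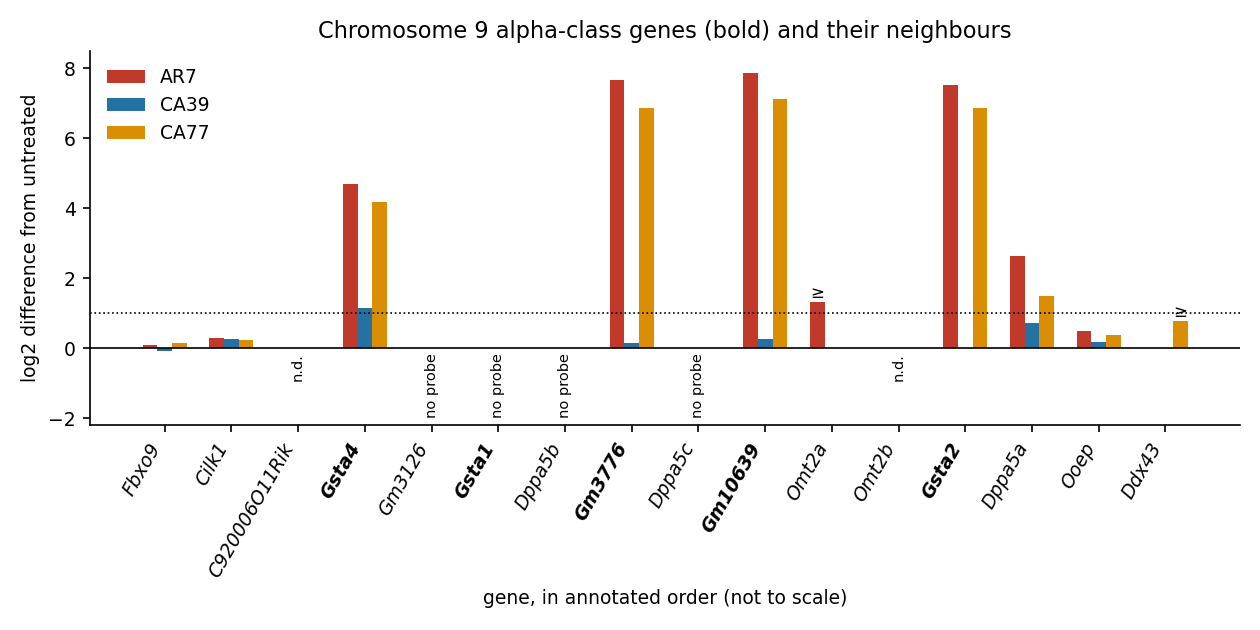
Log2 difference from untreated of AR7, CA39 and CA77 (brightest probe of a gene, 1 array against 1 array) for the chromosome 9 alpha-class genes, in bold, and neighbouring genes in annotated order; distances are not to scale. The dotted line is 2-fold, ≥ marks a lower bound, n.d. marks genes detected on no array, and an empty place under a measured gene means that no difference was given. The high bars of AR7 and CA77 stand at Gsta4, Gm3776, Gm10639 and Gsta2, and Dppa5a is the next highest.

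The genes with the pattern most like Gsta4 were found by the distance between their 3 differences from untreated, among 13012 symbols outside the family detected on all 4 arrays. All distances share the untreated array. The nearest was Aldh3a1, an aldehyde dehydrogenase, at a distance of 1.44, where AR7 gave 4.0, CA39 0.04 and CA77 3.59. Its second probe read 4.67, -0.12 and 4.41. Nqo1, a quinone reductase, followed at 3.18, with 2.25, 0.37 and 2.29.

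Then came Dppa5a at 3.40 and Ptgr1, a reductase of alkenals, at 3.68. Ptgr1 was past 2-fold with all compounds, as Gsta4 was, and its differences were 1.85, 1.40 and 1.85. With the offset of 50 the CA39 value of Ptgr1 was 0.95, under 2-fold, where that of Gsta4 was 1.11. Calcoco2, a receptor of selective autophagy, was the fifth, with 3.42, 0.02 and 0.64, but its probes disagreed: the second gave -0.03 with AR7 and 0.52 with CA77. The same 5 genes were nearest to the first Gm10639 probe, at distances from 5.25 for Aldh3a1 to 8.08 for Ptgr1.

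Enzymes that make, use and clear the products of glutathione conjugation were read from 6 gene lists, by the brightest probe of each gene. List medians are over the genes detected on at least 1 of the arrays compared. Over all genes so detected the share past 2-fold higher was 1.49% for AR7, 1.57% for CA77 and 4.19% for CA39, and the median was 0 for each. The share past 2-fold lower was 0.375% for AR7, 0.469% for CA77 and 1.39% for CA39. Of 22 glutathione transferases of other classes, 2 were past 2-fold higher with AR7, 1 with CA77 and 1 with CA39, where 2 were lower. The list medians were 0.55 with AR7 over 22 detected genes, and 0.36 with CA77 and 0.00 with CA39 over 21. The genes past 2-fold were Gstt2 (2.69) and the microsomal Mgst1 (1.09) with AR7, mitochondrial Gstk1 (1.10) with CA77, and Gsto2 (1.11) with CA39. With the offset of 50 Gstk1 was under 2-fold with CA77 (0.93), which left none of the list. With the processed signal, quantile normalised, Gstk1 (1.18) and the prostaglandin D synthase Hpgds (2.12) were also past 2-fold with AR7, up from 0.97 each. The theta-class genes Gstt1 (-1.53) and Gstt3 (-1.06) were lower with CA39. These calls rest on the brightest probe. With CA39 that of Gstm6 gave 0.17, while its others gave -0.09 and 3.17. That of Ptges gave -0.15 and its other -1.33.

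Of 20 regulators and targets of NRF2, 4 were past 2-fold higher with AR7, 4 with CA39 and 2 with CA77, with medians of 0.62, -0.07 and 0.35. With AR7 these were Nqo1 (2.25), Ptgr1 (1.85), the cystine carrier Slc7a11 (1.66) and the aldehyde oxidase Aox1 (1.13). With CA77 they were Nqo1 (2.29) and Ptgr1 (1.85). With CA39 they were the carbonyl reductase Cbr3 (2.83), Slc7a11 (2.06), Ptgr1 (1.40) and the haem oxygenase Hmox1 (1.21). Hmox1 was 0.97 higher with AR7, just under 2-fold, and 0.37 higher with CA77. With AR7 it was past 2-fold with the processed signal, quantile normalised (1.01), and in the deposited series table (1.06). Slc7a11 was 0.55 higher with CA77. Nfe2l2 itself differed by 0.20, -0.22 and 0.46 with AR7, CA39 and CA77, and its inhibitor Keap1 by 0.01, -0.27 and -0.19.

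Of 14 genes of glutathione synthesis and recycling, 1 was past 2-fold higher with AR7, 0 with CA77 and 2 with CA39. The medians over 13 detected genes were 0.16, 0.13 and -0.05. The pair with CA39 was Slc7a11 and Chac1 (1.99), an enzyme that breaks glutathione down, and with AR7 it was Slc7a11. Gclc and Gclm, the subunits of the rate-limiting enzyme of glutathione synthesis, gave 0.58 and 0.94 under AR7, 0.25 and 0.18 under CA77, and -0.09 and -0.04 under CA39. Glutathione reductase Gsr differed by 0.23, -0.16 and 0.07 with AR7, CA39 and CA77.

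Of 11 measured genes of conjugate export and mercapturate formation, 0 were past 2-fold with AR7 or CA77 and 1, the aminopeptidase Anpep (1.51), was higher with CA39, with medians over the 9 detected genes of 0.00, 0.09 and 0.00 for AR7, CA77 and CA39. Of 12 aldehyde and alkenal clearing enzymes, Aldh3a1 and Ptgr1 were the 2 past 2-fold higher with AR7 and also with CA77. With CA39 they were Cbr3 and Ptgr1, and the retinal dehydrogenase Aldh1a1 was lower by 2.01 on the log2 scale (-2.01). The medians were 0.17, 0.15 and -0.03 with AR7, CA77 and CA39.

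Of 13 genes of the aryl hydrocarbon receptor and the xenobiotic receptors, which include the receptor genes Ahr, Nr1i2 and Nr1i3 and the partner gene Arnt beside targets, 10 were detected, and Ahrr, Cyp1a1 and Cyp2b10 were not. Of these 10, 2 were past 2-fold higher with AR7, 3 with CA77 and 2 with CA39, with medians of 0.02, 0.41 and 0.02. With AR7 and CA77 the list shared Aldh3a1 and Nqo1. Cyp1b1, a cytochrome P450 under the aryl hydrocarbon receptor, was higher with CA77 (1.15) and CA39 (1.34) but not with AR7 (-0.01). Cyp3a11, a target of the pregnane X receptor, was higher with CA39 (2.57). Several genes stand in more than 1 of the 6 lists, and the lists were not tested.

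**Figure D5:**
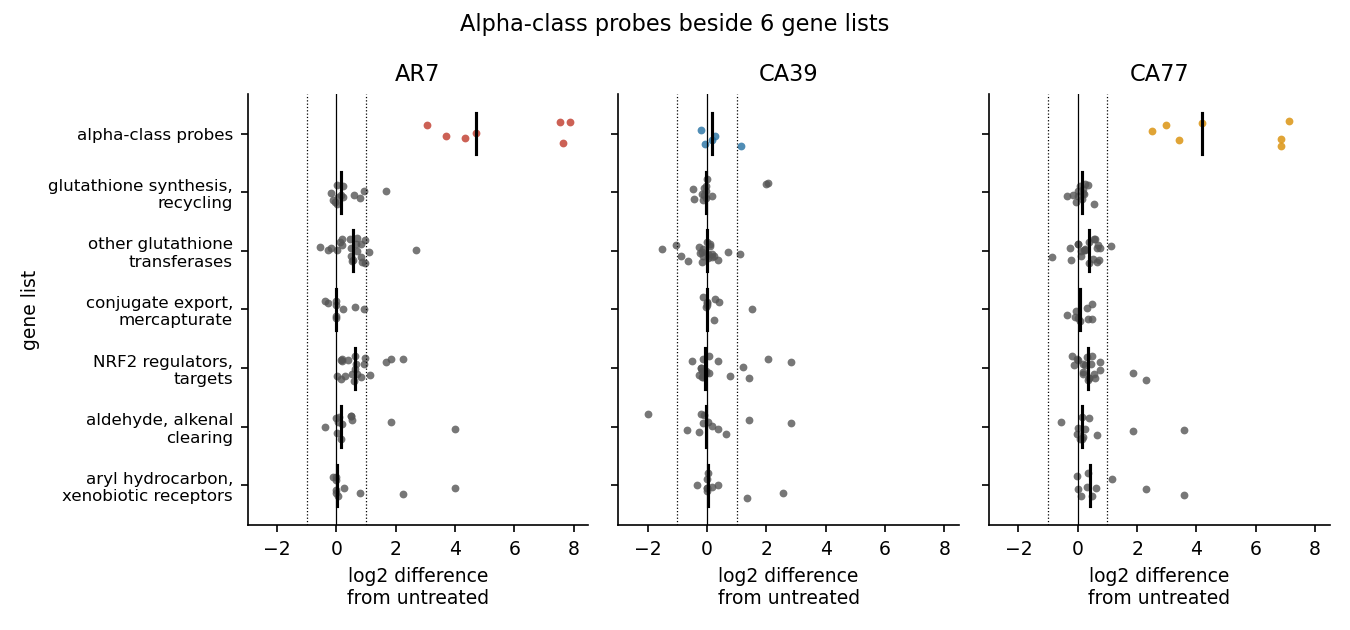
Log2 difference from untreated (horizontal axis) with AR7, CA39 and CA77 for the alpha-class probes (coloured, top row) and for the detected genes of 6 lists (grey, brightest probe of a gene), 1 array against 1 array. Vertical bars are medians and dotted lines mark 2-fold in each direction. With AR7 and CA77 the alpha-class points run from 2.49 to 7.87, and with CA39 they sit near 0 except for Gsta4.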

How the data were processed

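RNA of 4 NIH-3T3 cultures was labelled with Cy3 and hybridised by the authors to 4 one-colour Agilent mouse arrays, and Feature Extraction 10.7.3.1 read the spots. What was deposited per array is the linear intensity of each spot and of its local background. The deposited series table held the background-subtracted intensity, without scaling or log2. The study's methods name robust multiarray averaging.

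Here, spot and background medians were corrected with normexp (limma 3.58.1, R 4.3.3, offset 0), gene spots were quantile normalised, and log2 values were averaged per probe after marked spots (142 to 328 per array) were left out. Detection required that more than 50% of the spots of a probe passed the scanner software's test against background. Other values were raised to the 1st percentile of detected signals on that array (log2 5.83, 6.80, 6.85 and 6.22 on untreated, AR7, CA39 and CA77) unless their own was higher, giving bounds. A difference whose higher side, after this floor, was undetected was not given. In lists and in medians over all probes it counted as 0 where the other array detected the probe. Genes or probes undetected on both arrays were left out. Past 2-fold means a difference of at least 1 (log2) with the brighter side detected. Accessions were matched to RefSeq symbols of GRCm38.p6, which named 27506 of 55378 probes. No spot was saturated (0 in all). The number of arrays limits the precision. On simulated data with 200 changed probes the calls were checked.

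The genes and lists were chosen with earlier results of these data known. Named were all family probes, list genes past 2-fold, 9 genes of glutathione and NRF2 biology whatever their values, the 5 nearest patterns and up to 3 neighbours on each side. Lists covered glutathione synthesis and recycling, other transferase classes, conjugate export, NRF2, aldehyde clearing and the aryl hydrocarbon and xenobiotic receptors. Markers of fibroblasts, liver, epithelium, macrophages and fat cells were read. The identity of the member proteins was not analysed here.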

Additional observations from a re-analysis of the deposited data

How the results depend on the processing

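Of 344 recomputed log2 values that were at least 1 in size, 0 changed sign. Of the smaller ones 11 did, none of them an alpha-class probe (0) and all with a size of at most 0.14 before: the synthesis list and the export list with CA77, Calcoco2 and Aldh3a1 with CA39, and Fbxo9 with CA77. Counts of alpha-class probes past 2-fold stayed within 1.5 times in 116 of 120 recomputations. The exceptions were AR7 against CA77, with 1 probe past 2-fold in the deposited series table and 5 at a threshold of 1.5-fold, and AR7 and CA77 each against CA39, with 4 when both arrays had to detect a probe. The family's median difference with AR7 was 5.57 with the scanner software's processed signal, 5.19 with 75th percentile scaling of it, 5.37 in the series table, 5.11 with the floor at the lowest detected signal and 5.26 without a floor. With CA77 it was 4.64 with the processed signal and 4.34 without a floor. Single alpha-class values moved by more than the tolerance in 114 of 318 recomputations. With AR7, Gsta4 ran from 4.62 to 4.83, Gsta2 from 6.92 to 8.04, Gm3776 from 7.32 to 8.02, the Gm10639 probes from 7.51 to 8.21 and from 3.47 to 5.57, and those of Gsta3 from 3.26 to 4.06 and from 2.64 to 3.46. With CA77, Gsta4 ran from 4.10 to 4.25, Gsta2 from 6.26 to 7.4, Gm3776 from 6.52 to 7.20, the Gm10639 probes from 6.77 to 7.45 and from 2.60 to 4.64, and those of Gsta3 from 2.59 to 3.38 and from 2.12 to 2.86. With CA39, Gsta4 ran from 1.11 to 1.25. In the series table the median of all detected probes was itself shifted by -0.20 for CA77 against untreated and by 0.25 for AR7 against CA77, and with 75th percentile scaling by -0.11 for CA39 against untreated.

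Counts over all probes moved in 20 of 60 recomputations. With the normexp offset of 50, 520 probes were past 2-fold higher with CA77 and 373 with AR7 against CA77. With the processed signal these counts were 1564 and 982. With 75th percentile scaling 1259 were higher in AR7 against CA39 and 982 in AR7 against CA77, where the series table gave 1092. Without a floor 1259 were higher in AR7 against CA39 and 1535 in CA77 against CA39. At 1.5-fold the counts against untreated were 1343 for AR7, 2619 for CA39 and 1597 for CA77, and between compounds 1978 for AR7 against CA39, 1827 for CA77 against CA39 and 1083 for AR7 against CA77. Where both arrays had to detect a probe the counts were 395 with AR7 and 393 with CA77 against untreated, 437 and 429 for these against CA39, and 216 for AR7 against CA77.

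List counts held in 307 of 324 recomputations and list medians in 159 of 162. Of the other transferase classes, the normexp offset of 50 left 0 higher with CA77 (Gstk1 was lost). The processed signal under both scalings gave 4 higher with AR7 (Gstk1 and Hpgds were gained). The mean over all probes of a gene gave 2 higher with CA39 (Gstm6 was gained, at 1.08). One gene of this list (1) was lower with CA77 with the processed signal under both scalings, in the series table, with the lowest floor and without a floor, and 1 was lower with AR7 under both floor settings. Without a floor 4 were lower with CA39. For conjugate export 1 gene was higher with CA77 with the processed signal and 1 with AR7 in the series table and after subtraction of the surrounding block, and the median with AR7 was 0.17 without a floor. With the deposited values the glutathione synthesis list had 2 genes higher with AR7 and a median of -0.0518 with CA77, and the NRF2 list a median of 0.16 with CA77. With the offset of 50, 1 aldehyde clearing gene was higher with CA39, since Ptgr1 fell under 2-fold. The cause of these moves was not tested. No paired analysis was possible because each group is 1 array.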

Other observations

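Some array probes carry a genomic interval of build mm9 in place of a gene, and 11 of them name the overlapping stretches 78104935 to 78116974 and 78107225 to 78118850 of chromosome 9. They were looked at after their values were seen, and no annotation of that build was used, so the gene under these intervals is not named. Of 6 probes with the forward direction in their name, 3 were past 2-fold higher with AR7 and with CA77 and none with CA39 (0). Probe A_30_P01028766 read 7.64 on untreated, 7.82 on CA39, 14.72 on CA77 and 15.43 on AR7 (log2 intensity). As differences from untreated, AR7 gave 7.78, CA39 0.17 and CA77 7.07. Probe A_30_P01018914 gave 7.63, 0.00 and 6.84 in the same order, and probe A_30_P01020518 gave 7.15, 0.19 and 6.45.

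The other 3 forward probes were detected in untreated cells alone, where the floor was lowest (5.83, against 6.80, 6.85 and 6.22 on AR7, CA39 and CA77). Probe A_30_P01027697 read 6.06 on untreated and 6.22 on AR7, and A_30_P01019470 read 6.31 and 6.14. Probe A_30_P01023869 read 6.92 on untreated and 5.13 to 5.36 on the treated arrays. Detection on untreated alone is therefore not a measured fall with a compound. Of 5 probes with the reverse direction, 3 were past 2-fold higher with AR7, by at least 1.71, at least 1.02 and 1.32. The last of these, A_30_P01033583, was also the 1 reverse probe past 2-fold higher with CA77, by 2.08. Among the values set in order with AR7, the forward probes at 7.78 and 7.63 lay between the first Gm10639 probe at 7.87 and Gsta2 at 7.53.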
